A study of Mus musculus with 6 samples.

Results

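The insulin-like growth factor (IGF) family was followed in the gastrocnemius (Gas) muscles of WT mice and mice with a global miR-92b knockout (M92KO) through 10 genes, which were taken from the deposited count table by symbol: the ligands Igf1 and Igf2, the receptors Igf1r and Igf2r, and the binding proteins Igfbp2 to Igfbp7. All 10 symbols were among the 34714 in the table, and 9 passed the filter on low counts that left 15788 genes for testing. Igfbp2 did not pass it. RNA from Gas muscles of 8-week-old mice without treatment was sequenced as 3 WT and 3 M92KO libraries. The knockout mice were a commercial global knockout on a C57BL/6JGpt background, so miR-92b was deleted in every cell type of the muscle and in every other organ. The controls are labelled WT and C57, and the study's methods give them as C57BL/6 mice of matched age and the knockout mice as males. The replicates are numbered, but nothing in the labels says that each came from a separate animal, so that the p-values measure only the spread between these samples.

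IGF1 and IGF2 are secreted growth factors related to insulin. Both signal through the tyrosine kinase IGF1R, whereas IGF2R carries IGF2 to lysosomes for degradation and has no kinase. The IGF-binding proteins (IGFBPs) hold most IGF outside the cell and can block or aid its access to the receptor. IGF1 made in muscle is known for promoting fibre growth through PI3K and Akt, and IGF2 for its part in the differentiation of myoblasts.

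The deleted gene encodes 2 mature miRNAs, one from each arm of its hairpin. Their sequences are shown because a miRNA recognises its targets mainly through its seed, bases 2 to 8, which is in capitals (RefSeq, GRCm38.p6, chr3:89227126-89227147 and chr3:89227165-89227188, minus strand):

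mmu-miR-92b-3p: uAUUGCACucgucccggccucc

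mmu-miR-92b-5p: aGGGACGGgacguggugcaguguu

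The 3′-UTRs annotated by GENCODE on GRCm38 were searched on the transcript strand for TGCAAT (miR-92b-3p) and CGTCCC (miR-92b-5p), 6 bases that pair with positions 2 to 7. A longer match had the base that pairs with position 8 before them, an A after them, or both, so every longer match holds the shorter one. A match of at least 7 bases to miR-92b-3p was found in 2 of the 10 genes, Igf1r and Igfbp5. It was found in 13.5% of all 20423 genes with an annotated 3′-UTR, and in 22.4% of those with a 3′-UTR over 1 kb. Igf2 and Igfbp4 held matches of at least 7 bases to miR-92b-5p, a length found in 4.60% of all genes and in 7.55% of those with a 3′-UTR over 1 kb. These stretches are shown in their own strand with the match in capitals. They lie at chr7:68229970-68229976 (plus strand) in Igf1r, chr1:72858707-72858713 (minus) in Igfbp5, chr7:142651705-142651711 and chr7:142653734-142653740 (minus) in Igf2, and chr11:99052484-99052490 (plus) in Igfbp4, in this order:

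Igf1r, miR-92b-3p: acaggtggacaGTGCAATcctcaactcca

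Igfbp5, miR-92b-3p: aaaccactaaaGTGCAATgtttcctgcac

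Igf2, miR-92b-5p: gagaacctctcCCGTCCCtcagtgtcatc

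Igf2, miR-92b-5p: cagttccatcaCGTCCCAcactaagatct

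Igfbp4, miR-92b-5p: tggctttgcctCCGTCCCcatatttccct

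Igf2r, Igfbp2, Igfbp6 and Igfbp7 held no match of 6 bases or more to either miRNA. With matches of 6 bases counted, 5 of the 10 genes had one to miR-92b-3p, beside 25.9% of all genes and 42.4% of those with a 3′-UTR over 1 kb. One to miR-92b-5p was found in 4 of the 10, beside 7.99% and 12.8%. A match is a stretch of letters, and binding was not measured in these libraries.

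Library totals were 38246649 to 48209846 counts in WT and 33160508 to 37019640 counts in M92KO, and 3 counts, taken as the floor of detection, were worth 0.0629 to 0.0916 CPM (counts scaled to the TMM-normalized size of each library). These floors cover counting error only, whereas the intervals of fold changes come from the edgeR fit and include the spread between libraries. No gene of 15788 had an adjusted p-value under 0.05 in edgeR's quasi-likelihood test, whereas DESeq2's Wald test called 312 (1.98%), none of them in the IGF family. At an unadjusted p-value under 0.05, the threshold used below, edgeR called 1955 genes (12.4%), of which 863 (5.47%) were higher and 1092 (6.92%) lower in M92KO. M92KO replicate 1 was singled out from these same results, as the library whose omission gave the most calls. Without it, 2984 of 16058 genes (18.6%) passed the unadjusted threshold and 401 the adjusted one. Leaving out any other library gave 7.65% to 10.6% at the unadjusted threshold. Omitting a library that widens its group narrows the spread and raises the calls, so values without it are description only. Results of the IGF genes are given with and without this library. A row for the deleted gene was not analysed here, and the deletion was therefore not checked in these libraries.

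Apart from Igfbp2, the binding proteins and Igf2r made up the upper end of the family and the ligands and the type 1 receptor the lower end. Per kb of annotated exon in WT, the 2 highest were Igfbp7 at 96.9 ± 6.55 CPM per kb (SD, n = 3) and Igfbp5 at 95.1 ± 14.9, whose ranges over the 3 libraries overlapped. Igfbp6 followed at 30.1 ± 3.54, separate from both. Igfbp3 (13.8 ± 1.82) and Igf2r (13.1 ± 0.274) overlapped each other and lay above Igfbp4 (9.91 ± 0.292). Igf2 (4.57 ± 0.173) and Igf1 (4.07 ± 0.462) overlapped, and Igf1r was lower than either at 2.38 ± 0.205. Igfbp2, at 0.0325 CPM per kb, was the lowest.

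In M92KO, Igfbp7 (90.3 ± 2.74 CPM per kb) and Igfbp5 (69.2 ± 15.5) no longer overlapped, Igf2r stood above Igfbp3, and Igf1 stood above Igf2, although the ranges of each of these last pairs overlapped. Igfbp5 made up 34.3% to 42.8% of the summed level per kb of the 6 binding proteins in the WT libraries and 27.4% to 37.6% in the M92KO libraries. When the length of the longest transcript replaced that of all exons, Igf1 (5.72) and Igf2 (5.54) changed places in WT, still with overlapping ranges.

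**Figure D1:**
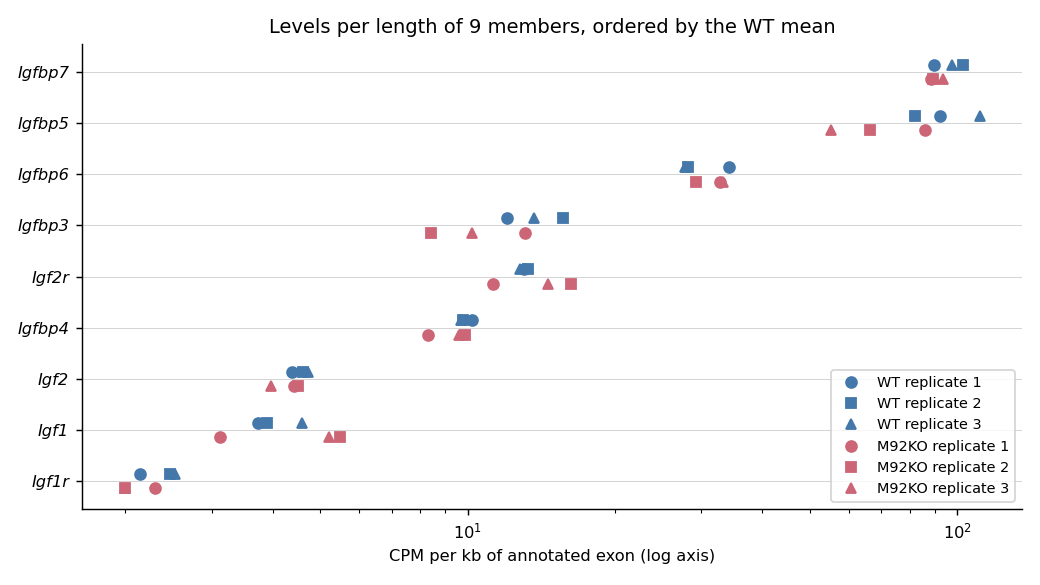
Level per length of the 9 IGF genes tested in each library, in TMM-normalized CPM per kb of annotated exon on a log axis; blue symbols are WT and red symbols M92KO, with one shape per replicate number. Igfbp7 and Igfbp5 lie highest and Igf1r lowest in both groups.

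Igf1 (chromosome 10, 87858265 to 87937042, plus strand) encodes the growth-hormone-dependent ligand. Its level was 36.9, 38.5 and 45.5 CPM in WT replicates 1 to 3, and 31.0, 54.5 and 51.6 CPM in M92KO replicates 1 to 3. M92KO replicate 1 was the lowest of the 6 libraries and the other two M92KO libraries were the highest, so that the groups overlapped. The log2 fold change of M92KO over WT was 0.18 (SE 0.19, 95% interval -0.26 to 0.62, edgeR adjusted p = 0.762). Without M92KO replicate 1 it was 0.39 (interval 0.18 to 0.61), which passed the unadjusted threshold with an edgeR adjusted p = 0.0736.

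Igf2 (chromosome 7, 142650766 to 142666816, minus strand) encodes the second ligand, expressed from the paternal allele in most tissues. It measured 25.0, 26.4 and 27.0 CPM in WT, and 25.3, 25.8 and 22.7 CPM in M92KO. The 6 libraries lay close together, and only M92KO replicate 3 was below the WT range. M92KO over WT gave a log2 fold change of -0.09 (SE 0.08, interval -0.27 to 0.09, edgeR adjusted p = 0.708). Its exons overlap those of Igf2os on the other strand, and Igf2os had 6 to 10 counts in each library. They also overlap those of Gm49394 on the same strand, a symbol that is not among those counted. The strandedness of the counting is not given in the sources used here, so reads of partners on the other strand cannot be told apart. Strandedness would not separate reads of a partner on the same strand.

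By the rule set for likeness of pattern (root mean square distance of log2 CPM centred on the mean over the 6 libraries), the genes nearest to Igf1 were Cd59a at 0.0505, Lmbrd2 at 0.0731 and BC034090 at 0.0870, against a median distance of 0.330 over all genes tested. Cd59a measured 23.8, 27.3 and 29.7 CPM in WT and 21.2, 36.8 and 36.3 CPM in M92KO. Its low M92KO replicate 1, like that of Igf1, follows from the rule that picked it. The nearest to Igf2 were Tspan13 at 0.0130, Swt1 at 0.0199 and Tmem176a at 0.0256, against a median of 0.172. These distances are smaller than the counting error of Igf2 itself, 2.79% to 3.48% of its level. For both ligands the nearest genes lie below the median by the rule that picked them. Igf1 and Igf2 had different profiles, with the lowest of the 6 libraries M92KO replicate 1 for Igf1 and M92KO replicate 3 for Igf2. The ratio of Igf1 to Igf2 per kb was 0.842 to 0.976 in WT and 0.708, 1.22 and 1.31 in M92KO replicates 1 to 3.

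**Figure D2:**
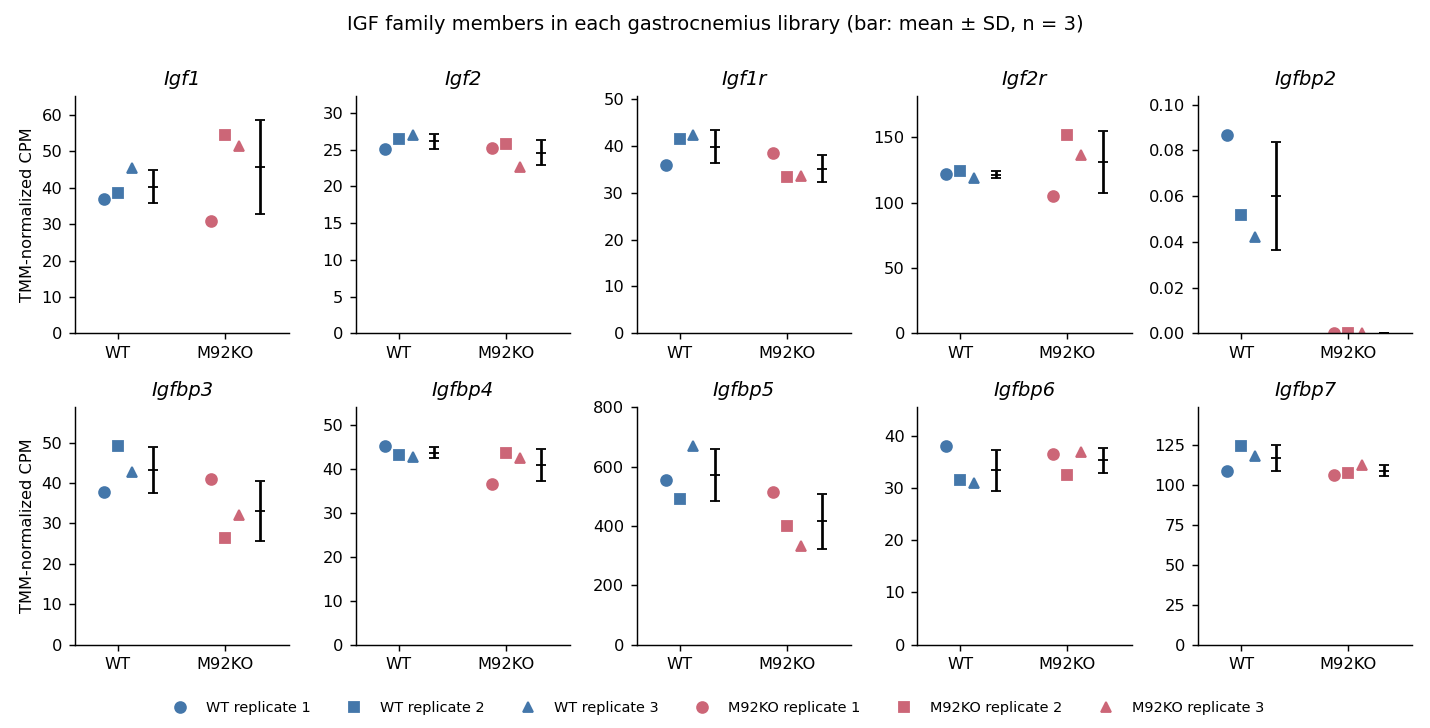
TMM-normalized CPM (linear axes from 0, one per gene) of the 10 IGF genes in the 3 WT libraries (blue) and the 3 M92KO libraries (red), with the group mean ± SD (n = 3) as a black bar. For Igf1, Igf2r, Igf1r, Igfbp3, Igfbp4 and Igfbp5, M92KO replicate 1 (red circle) lies apart from the other M92KO libraries, although for Igfbp5 all 3 are spread out. For Igfbp2 the scale ends near 0.1 CPM and all 3 M92KO libraries are at 0.

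Igf1r (chromosome 7, 67952827 to 68233668, plus strand), the signalling receptor for both ligands, measured 36.0, 41.4 and 42.3 CPM in WT. It measured 38.6, 33.5 and 33.6 CPM in M92KO. M92KO replicates 2 and 3 lay below every WT library and M92KO replicate 1 within the WT range. The log2 fold change was -0.18 (SE 0.09, interval -0.39 to 0.03, edgeR adjusted p = 0.475), short of the unadjusted threshold. It passed that threshold without M92KO replicate 1 (-0.25, interval -0.44 to -0.06) and without WT replicate 1 (-0.25, interval -0.47 to -0.03).

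Igf2r (chromosome 17, 12682406 to 12769664, minus strand), which clears IGF2 and also sorts lysosomal enzymes, was the receptor gene with more reads. It measured 121.6, 123.9 and 118.8 CPM in WT, a narrow range. The M92KO libraries measured 105.0, 151.6 and 136.2 CPM, with replicate 1 below and replicates 2 and 3 above all WT libraries. The log2 fold change was 0.11 (SE 0.12, interval -0.17 to 0.39, edgeR adjusted p = 0.772). It was 0.24 without M92KO replicate 1 (interval 0.11 to 0.38), which passed the unadjusted threshold, and -0.01 without M92KO replicate 2. The range of log2 levels within a group was 0.06 in WT and 0.53 in M92KO. Counting error was 1.33% to 1.66% of the level of Igf2r, which is not small beside its spread in WT. Airn, an antisense RNA with a role in the imprinting of Igf2r, starts within the gene but shares no exon with it, and measured 6.27 to 8.55 CPM in WT and 8.76 to 9.47 CPM in M92KO (log2 fold change 0.22, edgeR adjusted p = 0.564).

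Among the binding proteins, Igfbp5 and Igfbp3 were lower in M92KO at the unadjusted threshold, and they were the only 2 of the 9 tested genes to pass it in the fit of all 6 libraries. This was 2 of 9 in the lower direction, against a background of 6.92% lower and 12.4% either way over all genes, and neither passed after adjustment. No other gene of the family passed, in either direction.

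Igfbp5 (chromosome 1, 72857932 to 72874884, minus strand), a binding protein that adheres to extracellular matrix and is expressed in differentiating myoblasts, had the most reads of the family, 12050 to 31871 per library. It measured 554, 492 and 668 CPM in WT, and 516, 398 and 332 CPM in M92KO. M92KO replicates 2 and 3 were below every WT library, while M92KO replicate 1 was above WT replicate 2. The log2 fold change was -0.46 (SE 0.17, interval -0.84 to -0.08, edgeR adjusted p = 0.335). The exact permutation test, whose smallest two-sided p-value for 3 against 3 is 0.1, gave p = 0.2. The unadjusted call was lost without WT replicate 3 (-0.34), M92KO replicate 2 (-0.43) or M92KO replicate 3 (-0.32), and the difference was -0.65 (interval -0.95 to -0.34, edgeR adjusted p = 0.0503) without M92KO replicate 1.

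Igfbp3 (chromosome 11, 7206086 to 7213923, minus strand) encodes the main carrier of IGF in blood, which circulates with IGF and the acid-labile subunit. It measured 37.7, 49.0 and 42.7 CPM in WT, and 41.1, 26.3 and 32.0 CPM in M92KO. As with Igfbp5, M92KO replicates 2 and 3 were below every WT library and M92KO replicate 1 lay within the WT range. The log2 fold change was -0.38 (SE 0.16, interval -0.74 to -0.02, edgeR adjusted p = 0.388), and the exact permutation test gave p = 0.2. The unadjusted call was lost without WT replicate 2 (-0.28), WT replicate 3 (-0.39), M92KO replicate 2 (-0.24) or M92KO replicate 3 (-0.36). Without M92KO replicate 1 the difference was -0.57 (interval -0.86 to -0.28, edgeR adjusted p = 0.0629).

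Igfbp4 (chromosome 11, 99041244 to 99054392, plus strand), an inhibitory binding protein cleaved by the protease PAPP-A, measured 45.2, 43.3 and 42.8 CPM in WT. It measured 36.7, 43.7 and 42.5 CPM in M92KO. Only M92KO replicate 1 stood clearly below WT, and the log2 fold change was -0.09 (SE 0.08, interval -0.28 to 0.09, edgeR adjusted p = 0.695). Without that library it was -0.02.

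Igfbp6 (chromosome 15, 102144362 to 102149511, plus strand), which prefers IGF2 over IGF1, measured 37.9, 31.4 and 30.9 CPM in WT. Its M92KO values of 36.5, 32.5 and 36.9 CPM all lay within the WT range, and the log2 fold change was 0.08 (SE 0.10, interval -0.14 to 0.30, edgeR adjusted p = 0.797).

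Igfbp7 (chromosome 5, 77349240 to 77408041, minus strand), a low-affinity relative of the family found around blood vessels, measured 108.7, 124.4 and 118.2 CPM in WT. It measured 106.7, 107.9 and 112.9 CPM in M92KO. M92KO replicates 1 and 2 lay just below the WT range and replicate 3 within it, with a log2 fold change of -0.10 (SE 0.07, interval -0.27 to 0.06, edgeR adjusted p = 0.631). Its exons overlap those of Polr2b on the other strand, which measured 65.6 to 72.0 CPM in WT and 58.3 to 74.3 CPM in M92KO.

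Igfbp2 (chromosome 1, 72824503 to 72852474, plus strand), a neighbour of Igfbp5 on the chromosome, had 4, 2 and 2 counts in WT and 0 counts in each M92KO library. All but WT replicate 1 were under the floor of 3 counts, so no fold is given and a difference was not detectable at this depth.

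**Figure D3:**
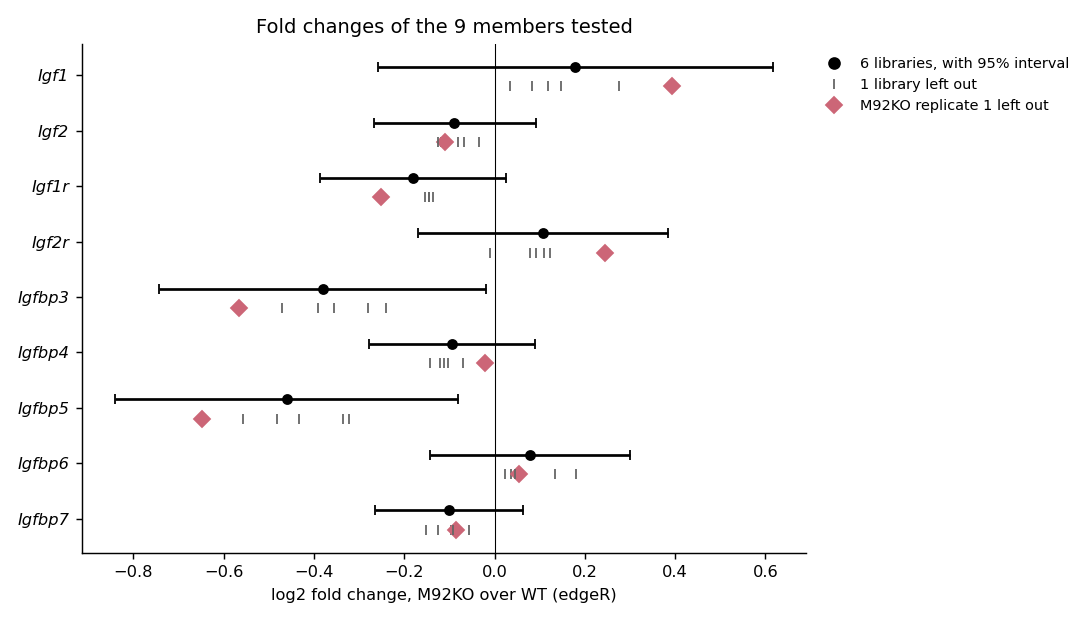
Log2 fold changes (M92KO over WT, edgeR) of the 9 IGF genes tested: black points and bars are the estimate from 6 libraries with its 95% interval, grey ticks the estimates with 1 library left out, and red diamonds those without M92KO replicate 1. The intervals of Igfbp3 and Igfbp5 end below 0, and leaving out M92KO replicate 1 moves Igf1 and Igf2r up and Igf1r, Igfbp3 and Igfbp5 down.

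The groups overlapped for all 9 tested genes, whereas 18.4% of all genes had groups that did not overlap, 8.77% with M92KO above WT and 9.58% with M92KO below WT. The median log2 fold change of the 9 was -0.09, beside 0.00 over all genes tested, and 6 of the 9 were negative. The summed level of the family was 970.5 to 1136 CPM in WT and 800.2 to 936.6 CPM in M92KO, a sum of which Igfbp5 is the largest part. Without M92KO replicate 1, 5 of the 9 genes passed the unadjusted threshold, Igf1 and Igf2r higher and Igf1r, Igfbp3 and Igfbp5 lower, against a background of 18.6%, and none passed after adjustment in edgeR. Without WT replicate 3, M92KO replicate 2 or M92KO replicate 3, 0 passed.

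Both genes with a match of at least 7 bases to miR-92b-3p, Igf1r and Igfbp5, had negative log2 fold changes (-0.18 and -0.46). The same was true of Igf2 and Igfbp4 for miR-92b-5p (-0.09 each). Over all tested genes with such a match the median was -0.02 for miR-92b-3p (1978 genes) and -0.03 for miR-92b-5p (810 genes), and over those without one it was 0.00 in both cases. Negative values were found in 6 of the 9 tested IGF genes and in 7897 of all 15788 genes. The intervals of Igf1r, Igf2 and Igfbp4 included 0.

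Genes around the IGF genes were followed in 3 lists, whose counts are read against the 12.4% of all genes that passed the unadjusted threshold. Of proteases, carriers and inhibitors outside the cell, 7 of 9 were tested and 1 passed the unadjusted threshold, Htra1, a secreted serine protease that cleaves IGFBPs. Htra1 measured 38.8, 29.6 and 39.0 CPM in WT and 30.7, 25.7 and 27.8 CPM in M92KO (log2 fold change -0.35, SE 0.12, edgeR adjusted p = 0.312). WT replicate 2 lay among the M92KO libraries. Igfbp1, a binding protein made mainly by liver, had 0 counts in all 6 libraries.

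Of 13 genes of receptor signalling, all tested, 2 passed, both lower, beside 6.92% lower over all genes. Grb10, an adaptor that dampens insulin and IGF receptor signalling, measured 52.7, 57.6 and 68.2 CPM in WT and 48.8, 48.6 and 46.7 CPM in M92KO, without overlap (log2 fold change -0.31, SE 0.10, edgeR adjusted p = 0.271). Irs1, the docking protein that links both receptors to PI3K, measured 221.9, 220.9 and 228.9 CPM in WT and 200.7, 192.0 and 200.4 CPM in M92KO, without overlap (log2 fold change -0.18, SE 0.06, edgeR adjusted p = 0.312). The median of the 13 genes was 0.01.

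Of 12 genes of the growth hormone axis and of Igf2 control, 10 were tested and 1 passed. Stat5b, the transcription factor through which growth hormone induces Igf1, measured 299.2, 340.9 and 343.3 CPM in WT and 279.8, 260.0 and 246.7 CPM in M92KO, without overlap (log2 fold change -0.32, SE 0.08, edgeR adjusted p = 0.209). The median of the 10 was -0.15, with 9 below 0. H19, the non-coding RNA beside Igf2, measured 557.2, 567.7 and 484.3 CPM in WT and 328.6, 483.3 and 631.4 CPM in M92KO, with groups that overlapped (log2 fold change -0.16, edgeR adjusted p = 0.805). In these 3 lists 4 genes passed, all lower, and 2 to 11 passed when 1 library was left out. Without WT replicate 3 the count was 2, beside 7.95% of all genes in that fit. Without M92KO replicate 3 the count was 8, beside 10.6%, and without M92KO replicate 1 it was 11. Of these 11, 5 were higher (Adam9, Insr, Sos1, Ptpn11 and Pik3ca) and 6 lower, beside 18.6% of all genes in that fit.

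**Figure D4:**
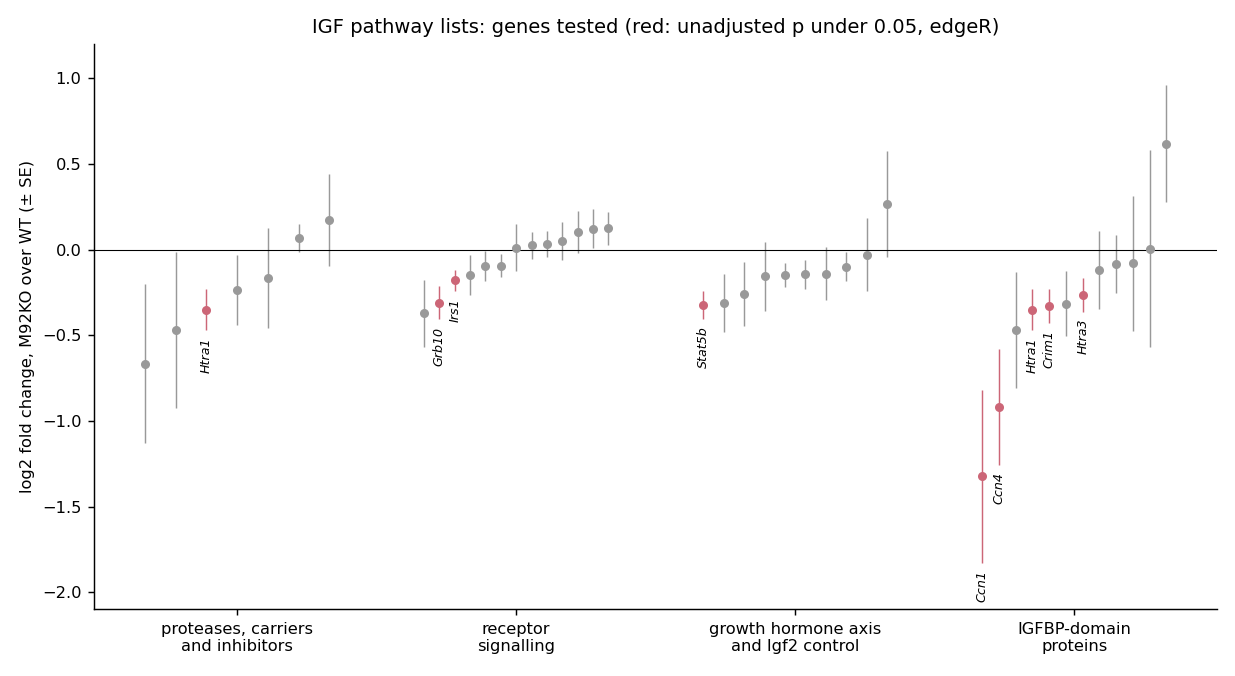
Log2 fold change (M92KO over WT, ± SE, edgeR) of each tested gene of the 3 IGF pathway lists and of other proteins with an IGFBP domain, sorted within a list; red points are the genes at an unadjusted p under 0.05, with their names. Every red point is below 0, and Htra1 stands in 2 lists.

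In whole muscle, fewer cells of a type and less RNA per cell cannot be told apart. The muscle fibre markers, which identify the tissue, were abundant and similar in both groups (summed 122300 to 141500 CPM in WT and 121000 to 139400 CPM in M92KO, 0 of 8 passing). The summed fibroblast markers were 1872 to 2449 CPM in WT and 1268 to 1792 CPM in M92KO, without overlap and lowest in M92KO replicate 1. Col1a1, Col1a2, Col3a1 and Dcn made up most of this sum (WT means 295, 406, 698 and 407 CPM). At the unadjusted threshold 3 of 10 were lower (Col1a1, Col1a2 and Dcn), beside 6.92% of all genes. Of the 10, 8 had log2 fold changes below 0, with Pdgfra (-0.10) and Fbn1 (-0.08) near 0. The 2 above 0 were Pi16 (0.12) and Mfap5 (0.25). M92KO replicate 1 had the highest Igfbp3 and Igfbp5 of the 3 M92KO libraries. The part of the fibroblast markers in the values of Igfbp3 and Igfbp5 was not tested.

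Of the other marker lists, tendon (3 of 6), Schwann cell (3 of 7), endothelial (1 of 10) and macrophage (1 of 9) held genes that were lower and none that were higher, satellite cell (2 higher and 2 lower of 6) and mural (1 higher and 1 lower of 8) held genes of both directions, and fat and red cell held none that passed. Over all genes 6.92% were lower and 5.47% higher, so the single genes of the endothelial, macrophage and mural lists are near the background. The summed levels of these lists overlapped between the groups. The markers of mural cells, the contractile cells around vessels, summed to 1225 to 1287 CPM in WT and 1094 to 1233 CPM in M92KO, and those of endothelial cells to 1085 to 1182 CPM and 974 to 1168 CPM.

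Genes that fasting induces in muscle were also followed, since food intake alters the supply of insulin and growth hormone. Of 7 such genes 5 were lower in M92KO at the unadjusted threshold and 0 higher, beside 6.92% and 5.47% of all genes, and their summed level was 2008, 3294 and 3082 CPM in WT and 1833, 1471 and 1275 CPM in M92KO. The groups did not overlap, and WT replicate 1 was near M92KO replicate 1. Pdk4, a kinase that limits glucose oxidation, had a log2 fold change of -1.22 (SE 0.28, edgeR adjusted p = 0.179), Slc25a25 one of -1.32 (SE 0.39, edgeR adjusted p = 0.256), Ucp3 one of -0.999 (SE 0.28, edgeR adjusted p = 0.237) and Cdkn1a one of -0.82 (SE 0.30, edgeR adjusted p = 0.336). Slc25a25 measured 207.6, 320.7 and 669.5 CPM in WT and 110.1, 180.9 and 188.5 CPM in M92KO. Fbxo32 (log2 fold change -0.31) and Trim63 (-0.10), named after their values were seen, did not pass, and their groups overlapped. The study's methods describe an overnight fast before tissue was taken, without naming the sequenced mice. The paper also reports that the knockout did not influence daily food intake. Daily intake is a different measure from the fed or fasted state of the sequenced mice when tissue was taken. The part of feeding in the values of the IGF genes was not tested.

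**Figure D5:**
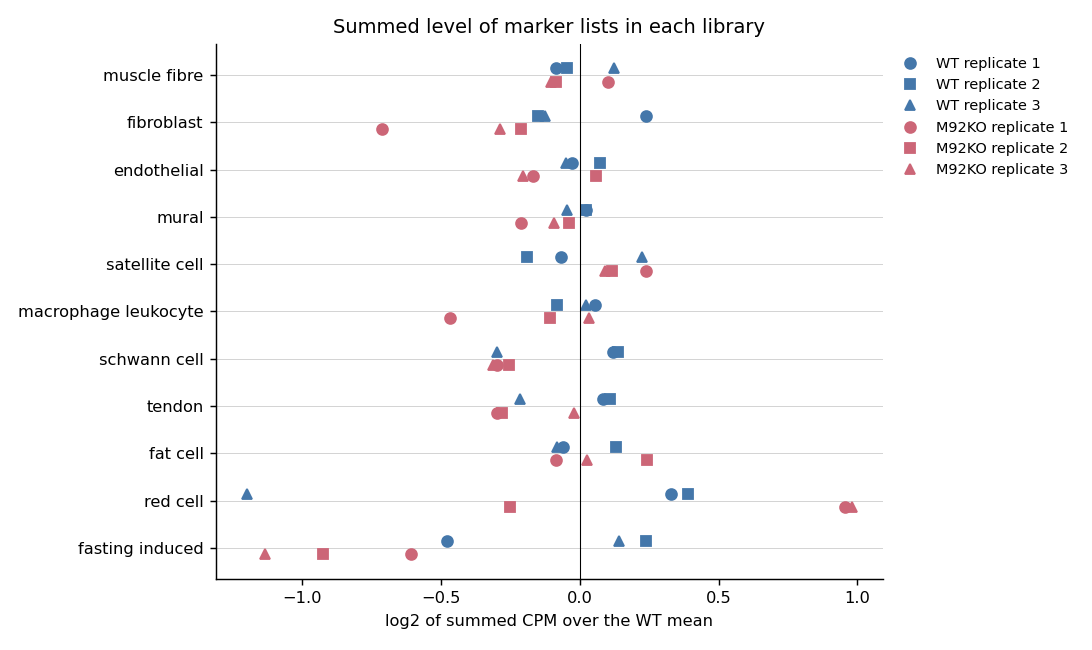
Summed CPM of each marker list in each library, as log2 relative to the mean of the 3 WT libraries; blue symbols are WT and red symbols M92KO, one shape per replicate number. The groups are apart for the fibroblast and fasting-induced lists, and M92KO replicate 1 (red circle) has the lowest fibroblast sum.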

How the data were processed

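The authors deposited raw read counts per gene symbol for 6 Gas libraries, without normalization. The labels name a SMARTer kit and the builds GRCm38 and mm10. The aligner, the counter and the annotation are not given in the sources used here. Counts were filtered with filterByExpr (minimum count 10, minimum total 15), normalized by TMM and tested with glmQLFTest in edgeR 4.0.16 (R 4.3.3) without a covariate, and p-values were adjusted by Benjamini-Hochberg over 15788 genes. The alternatives were DESeq2 1.42.0, its size factors, other filters, a replicate block, removal of length and GC trends, each library left out, and the quantile normalization and limma 3.58.1 steps of the study's supplementary methods, on all symbols and, chosen after seeing the data, on the genes that passed the filter. Positions and lengths came from GENCODE on GRCm38, in which all 10 genes were matched. Fits were tested on simulated data.

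All 10 genes are named; from each other pathway list, up to 4 genes with the smallest unadjusted p-value under 0.05 (markers are given by counts, with other genes named where a count is small, after their values were seen); and the 3 nearest patterns of Igf1 and Igf2. Members and lists were chosen with earlier results of these data known. Protein sequences were not used here, and 1 gene of a list is not reported here.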

Additional observations from a re-analysis of the deposited data

How the results depend on the processing

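Of the IGF genes, 2 passed the unadjusted threshold in edgeR (Igfbp3 and Igfbp5), 1 with length and GC trends removed (Igfbp3), 1 with the replicate block (Igfbp5), and 0 to 5 with 1 library left out. The steps of the supplementary methods on all symbols, most of which had too few reads to test, gave 1 (Igfbp2, with 0 to 4 counts). On simulated counts these steps recovered most changed genes at the unadjusted threshold but few after adjustment, and they were repeated, after the data were seen, on the genes that passed the filter, which gave 1 (Igfbp5). None passed after adjustment under any of the 14 alternatives. The 3 pathway lists gave 2 to 11 genes and all genes 1222 to 2984 with 1 library left out, 2 without WT replicate 3 and 11 and 2984 without M92KO replicate 1. The sign of each fold change held under every alternative except that Igf2r was -0.011 without M92KO replicate 2 (range -0.011 to 0.24 over libraries left out). After adjustment edgeR called 0 genes, DESeq2 312, the supplementary methods 42 (0 on the genes that passed the filter), edgeR without a filter 6 and with the block 2. Of calls at the unadjusted threshold 44.1% were higher in M92KO in edgeR and 54.4% with the supplementary methods (52.8% on the genes that passed the filter). Same-numbered libraries had correlated deviations of 0.0806, 0.0376 and 0.0151, so the numbers were not taken as pairs. With the block all genes gave 1691 calls. With the longest transcript as length, 7 of the WT levels per kb moved by over 1 SD. With 3 libraries a group, the SE of the members' log2 fold changes was 0.07 to 0.19. Counting error was 0.560% to 3.48% of each tested level. It was small beside the spread between libraries for Igfbp3 and Igfbp5. In WT it was not small beside the spread of Igf2 (SD 0.993, mean 26.15 CPM), Igf2r (SD 2.555, mean 121.5 CPM) or Igfbp4 (SD 1.287, mean 43.74 CPM). The causes were not tested.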

Other observations

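Other secreted or membrane proteins carry the IGFBP domain without belonging to the high-affinity binding proteins. Of 13 such genes 12 were tested, 5 were lower in M92KO at an unadjusted p-value under 0.05 and 0 were higher, beside 6.92% lower over all genes, and the median log2 fold change of the 12 was -0.29. None passed after adjustment. Besides Htra1, these were Crim1, Htra3, Ccn4 and Ccn1. Crim1, a membrane protein that binds bone morphogenetic proteins, measured 53.9, 67.1 and 56.5 CPM in WT and 43.3, 48.01 and 50.1 CPM in M92KO, without overlap (log2 fold change -0.33, SE 0.10, edgeR adjusted p = 0.258). The serine protease Htra3 measured 51.0, 47.6 and 48.7 CPM in WT and 46.7, 35.8 and 40.2 CPM in M92KO, also without overlap (log2 fold change -0.26, SE 0.10, edgeR adjusted p = 0.343).

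Among the matricellular CCN proteins, Ccn4 was scarce, at 1.05 to 2.55 CPM in WT and 0.794 to 0.992 CPM in M92KO (log2 fold change -0.92, SE 0.34, edgeR adjusted p = 0.343). Ccn1, named after its values were seen, measured 35.3, 92.4 and 207.5 CPM in WT and 42.5, 52.3 and 39.2 CPM in M92KO. Its WT libraries spanned a wider range than the difference between the groups, and WT replicate 1 was below every M92KO library (log2 fold change -1.32, SE 0.51, edgeR adjusted p = 0.354; -0.51 to -1.75 with 1 library left out). Of this list 5 genes, all lower, passed without M92KO replicate 1, with Kazald1 and Htra4 in place of Ccn1 and Ccn4. In that fit 18.6% of all genes passed, against 12.4% in the fit of all 6 libraries. Htra4 was scarce, and its highest library was M92KO replicate 1 (6.565 CPM).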
